A study of Mus musculus with 8 samples.

Results

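The vitamin D genes described here are Cyp24a1, Cyp27b1, Cyp2r1 and Vdr, 4 of the 35275 genes in the deposited table of kidney expression, taken by gene name. Cyp27b1 carries out the final activating hydroxylation of vitamin D in proximal tubule cells and makes the hormone calcitriol. Cyp24a1 breaks calcitriol and its precursor down, and Vdr is the nuclear receptor through which calcitriol acts. Cyp2r1 carries out the earlier hydroxylation, mainly in the liver. Calcitriol bound to Vdr is known to raise Cyp24a1 and to lower Cyp27b1, parathyroid hormone (PTH) to raise Cyp27b1, and fibroblast growth factor 23 (FGF23) with its co-receptor klotho to lower Cyp27b1 and raise Cyp24a1. The genes were chosen by their FPKM in these same 8 mice, since Cyp24a1 and Cyp27b1 had already stood out between the groups, so their differences between groups, and the ratio of the pair, are given as a description without a test.

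Poly-A RNA of the whole left kidney was sequenced from 4 male Ctrp1-/- mice (KO), which carried a deletion in both copies of C1qtnf1, and from 4 male wild-type littermates (WT). C1qtnf1 encodes CTRP1, a secreted relative of adiponectin. All 8 mice were on a C57BL/6J background, were 40 weeks old and had eaten a high-fat diet (60% of energy as fat) since 6 weeks of age. The deletion of 679 bp took the coding part of exon 4 and 162 bp of untranslated sequence, was made in 129S5 embryonic stem cells and was followed by more than 6 generations of backcrossing. It is present in every cell of the mouse, so the kidney and other organs that supply vitamin D hormones all lacked the intact gene. Each library came from a different mouse, and the library totals were 17884140 to 20344859 reads.

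Levels are in FPKM (fragment counts divided by the length of the gene and the size of the library). C1qtnf1 averaged 0.61 ± 0.23 FPKM in KO and 5.42 ± 0.141 FPKM in WT (SD, n = 4 each), so every library matched its label. Markers of the main kidney cell types were detected, and the summed level of 11 proximal tubule markers was 5762 to 6579 FPKM in KO and 5392 to 6596 FPKM in WT. KO replicate 2 stood apart from the other libraries, with a weight of 0.1 when libraries were weighted by quality, against 0.64 to 2.31 for the others. In that mouse the mean of 5 endothelial markers was 0.70 below the WT mean on the log2 scale, where the other KO mice lay between -0.01 and 0.07. Its thick ascending limb, distal convoluted tubule and podocyte means were also the lowest of all mice, at -0.33, -0.22 and -0.20. Its principal cell mean was the highest, at 0.38. The FPKM of this library summed to 525275, against 437496 to 450339 in the others. Its 10 highest genes held 22.5% of that sum, against 14.5% to 16.7%. No listed marker was at 0 in all mice. The mean level over the urothelial markers, and that over the immediate early and heat shock genes, was higher in each KO mouse than in any WT mouse, although single genes such as Upk1a, Fos and Hspa1b overlapped between the groups. These list means were 0.73 to 1.66 in KO and -0.27 to 0.33 in WT for the 5 of 6 urothelial markers tested, and 0.56 to 0.92 in KO and -0.20 to 0.17 in WT for the 8 of 10 immediate early and heat shock genes tested, relative to the WT mean. By limma 0 genes of either list passed at an adjusted p under 0.05, and 5 urothelial markers and 2 immediate early and heat shock genes had an unadjusted p under 0.05. The part of these lists in the values below was not tested.

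The positions of the genes come from GENCODE M21 on build mm10. Cyp24a1 lies on chromosome 2 from 170482708 to 170497145 (minus strand), Cyp27b1 on chromosome 10 from 127048250 to 127053006 (plus strand), Cyp2r1 on chromosome 7 from 114549682 to 114562972 (minus strand), and Vdr on chromosome 15 from 97854425 to 97910630 (minus strand). None is on chromosome 11, which carries C1qtnf1. Cyp24a1 shares 83 of its 3560 exon bases with Pfdn4 on the opposite strand. Pfdn4 was at 3.58 to 7.78 FPKM over all mice, far below Cyp24a1 in every mouse. The other members share no exon bases with annotated genes.

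Promoter windows from RefSeq (build GRCm38.p6, 250 bases before to 50 after the start) were at hand for Cyp27b1, Cyp2r1 and Vdr, 3 of the 4 genes. The sequence of Cyp27b1 is shown because its human counterpart has been described to be held down by calcitriol through a factor bound to E-box-like CATCTG motifs. The letters CATCTG, searched on both strands, occur once in the Cyp27b1 window, from base -189 to base -184 relative to the start, and 17.2% of 32851 promoter windows of this length hold them. They stand in capitals in the stretch chr10:127048045-127048074 (plus strand).
Cyp27b1: aggagcacaagaCATCTGgtgtggagctgt
The windows of Cyp2r1 and Vdr do not hold these letters. A match is a description of the sequence, and binding was not measured.

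The levels of the 4 genes spread over more than 2 orders of magnitude. Over all 8 mice Cyp24a1 averaged 116 FPKM and Vdr 89 FPKM, higher than 98.3% and 97.8% of the genes in the table. Cyp27b1 averaged 3.01 FPKM and Cyp2r1 0.575 FPKM. In the order of mean level, the neighbours Cyp24a1 and Vdr overlapped over the mice, at 69.4 to 186 FPKM and 70.5 to 106 FPKM. The levels of Cyp27b1, at 1.16 to 7.93 FPKM, lay above those of Cyp2r1, at 0.332 to 0.736 FPKM, in all 8 mice. The plot of FPKM by mouse shows the 4 genes on their own axes.

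**Figure D1:**
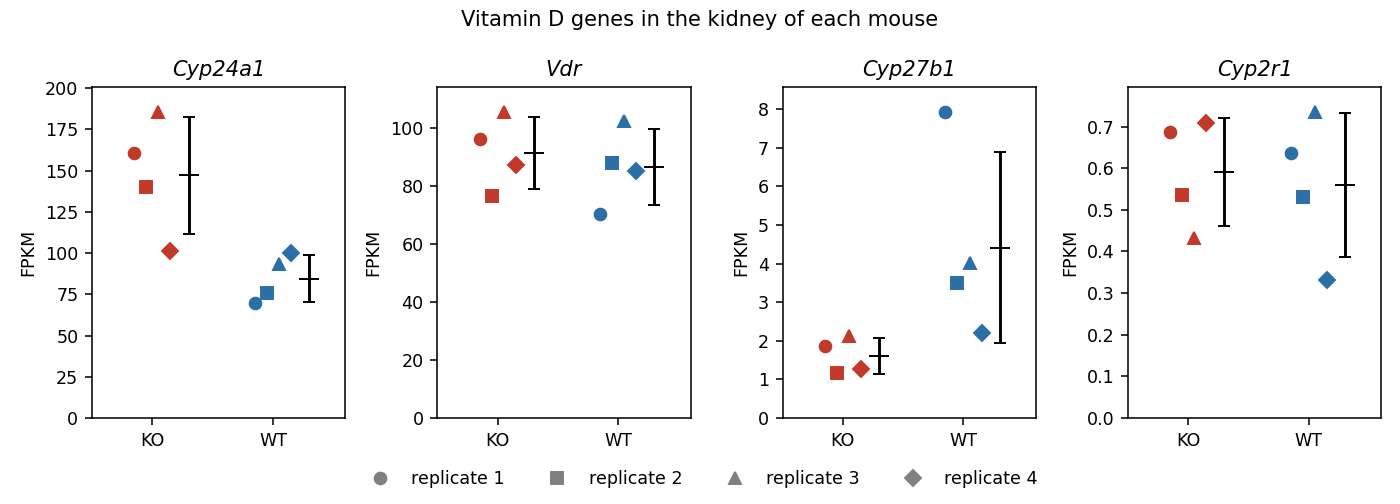
FPKM of Cyp24a1, Vdr, Cyp27b1 and Cyp2r1 (vertical axes, each from 0) in the 4 KO and 4 WT mice, 1 symbol per mouse with its shape giving the replicate number, and the mean with SD in black. The KO points of Cyp24a1 sit at 101 to 186 against 69.4 to 99.9 in WT, those of Cyp27b1 at 1.16 to 2.13 against 2.19 to 7.93, and the points of Vdr and Cyp2r1 overlap.

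Cyp24a1, the enzyme that inactivates vitamin D, was at 161, 140, 186 and 101 FPKM in KO replicates 1 to 4, against 69.4, 75.5, 93.3 and 99.9 FPKM in WT replicates 1 to 4. The mean was 147 ± 35.7 FPKM in KO and 84.5 ± 14.4 FPKM in WT (SD, n = 4 each), or 1.74 times the WT mean. All KO values lay above all WT values, but KO replicate 4 was level with the highest WT mouse. Counting error alone put KO replicate 4 at 99.1 to 104 FPKM and WT replicate 4 at 97.6 to 102 FPKM (95% Poisson intervals, which cover counting error only). After the libraries were scaled to each other, these were at 100 FPKM in KO replicate 4 and 101 FPKM in WT replicate 4, and the groups overlapped. The difference on the log2(FPKM + 1) scale was 0.79 ± 0.19 (SE). Each library held 4981 to 12179 reads of the gene, so counting error was small beside the spread between mice.

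Cyp27b1, the activating enzyme, was at 1.85, 1.16, 2.13 and 1.27 FPKM in KO replicates 1 to 4, against 7.93, 3.49, 4.03 and 2.19 FPKM in WT replicates 1 to 4. The mean was 1.6 ± 0.466 FPKM in KO and 4.41 ± 2.47 FPKM in WT (SD, n = 4 each), or 0.364 times the WT mean. All KO values lay below all WT values, and WT replicate 1 lay far above every other mouse. The nearest mice, KO replicate 3 at 1.73 to 2.60 FPKM and WT replicate 4 at 1.80 to 2.65 FPKM, could not be told apart within counting error. The libraries held 52 to 96 reads of Cyp27b1 in KO and 109 to 393 reads in WT. The log2 difference was -0.95 ± 0.26 (SE). It was -0.70 without WT replicate 1, and -0.63 without both WT replicate 1 and KO replicate 2. As the added 1 FPKM shrinks the change of a low gene, the size also rested on the scale, with -1.28 when 0.1 was added in its place and -1.33 in a fit to reads.

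Vdr, the receptor, was at 96.3, 76.5, 106 and 87.2 FPKM in KO replicates 1 to 4, against 70.5, 87.9, 102 and 85.3 FPKM in WT replicates 1 to 4. The groups overlapped over most of their range, with means of 91.4 ± 12.4 FPKM in KO and 86.5 ± 13.1 FPKM in WT (SD, n = 4 each). The log2 difference was 0.10 ± 0.14 (SE), smaller than its error, and it was -0.01 without WT replicate 1, the mouse with the lowest Vdr. Cyp2r1 was at 0.687, 0.535, 0.434 and 0.708 FPKM in KO, against 0.637, 0.531, 0.736 and 0.332 FPKM in WT. Its groups overlapped as well, and with 13 to 23 reads per KO library and 11 to 23 per WT library a small difference was not detectable at this depth. The log2 difference of Cyp2r1 was 0.04 ± 0.10 (SE, from the fit without a filter on low values), and it was -0.03 without WT replicate 4. The added 1 FPKM shrinks both this difference and its SE at so low a level. With 0.1 added in its place the difference was 0.11.

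Of the 4 genes, 3 passed the filter of a mean of at least 1 FPKM, and Cyp2r1 did not. In limma's test across the 12118 genes that passed, 0 of these 3 had an adjusted p under 0.05 (Benjamini-Hochberg), where 0.0413% of all genes tested did, 0.0165% higher and 0.0248% lower in KO. The FPKM of the KO mice all lay above those of the WT mice in 2.29% of the genes tested, Cyp24a1 among them, and all below in 3.01%, Cyp27b1 among them, so 5.3% of all genes tested had groups that did not overlap. Ordered by the size of the log2 difference, Cyp27b1 was at place 33 and Cyp24a1 at place 53 of 12118, and Vdr at place 5695. Nothing is read from these places, since the genes were singled out on the same contrast. In bulk kidney RNA, fewer cells of a type and less RNA per cell cannot be told apart. Taken relative to the mean of the proximal tubule markers in the same mouse, the log2 differences were 0.85 for Cyp24a1, -0.90 for Cyp27b1 and 0.16 for Vdr. Macrophages can express Cyp27b1 and Vdr, and the summed level of the 7 of 8 macrophage markers found in the table was 98.8 to 193 FPKM in KO and 105 to 113 FPKM in WT, with the highest value in KO replicate 4. Their part in the levels of the 2 genes was not tested.

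**Figure D2:**
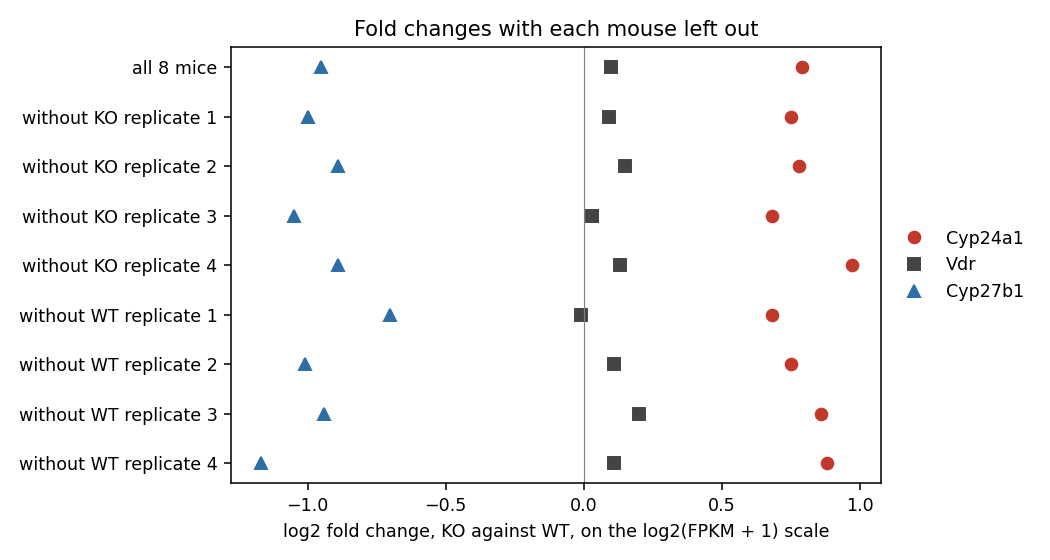
Log2 fold change of Cyp24a1, Vdr and Cyp27b1, KO against WT, on the log2(FPKM + 1) scale (horizontal axis), with all 8 mice and with each mouse left out (rows). Cyp24a1 stays between 0.68 and 0.97 and Cyp27b1 between -1.17 and -0.70 whichever mouse is left out, and Vdr lies near 0.

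In each mouse the breakdown enzyme was far above the activating enzyme. The ratio of Cyp24a1 to Cyp27b1, both in FPKM, was 86.8, 121, 87.1 and 79.7 in KO replicates 1 to 4, against 8.75, 21.6, 23.2 and 45.5 in WT replicates 1 to 4. The groups could not overlap in this ratio, since all KO values lay above the WT values in Cyp24a1 and below them in Cyp27b1. The lowest KO ratio was 1.75 times the highest WT ratio. Their counting intervals were also apart, at 62.1 to 104 for KO replicate 4 and 37.7 to 55.5 for WT replicate 4 (exact Clopper-Pearson, 95%). The difference of the mean log2 ratios was 2.13, with a mean of 6.53 ± 0.27 in KO and 4.40 ± 0.98 in WT (SD, n = 4 each). This is a geometric mean ratio 4.37 times as high in KO. The 4 KO mice were within 1.52-fold of each other in this ratio, while the WT mice spread over 5.21-fold, from WT replicate 1, which was highest in Cyp27b1 and lowest in Cyp24a1, to WT replicate 4, where the reverse held. Without WT replicate 1 the difference of the log2 ratios was 1.70, and without both that mouse and KO replicate 2 it was 1.57.

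Set against its receptor, Cyp24a1 was at 1.67, 1.83, 1.76 and 1.16 times the FPKM of Vdr in KO replicates 1 to 4, against 0.984, 0.859, 0.911 and 1.17 times in WT replicates 1 to 4. KO replicate 4 lay within the WT range and the other KO mice above it. Cyp27b1 was at 2.7, 2.16, 4.92 and 1.79 times the FPKM of Cyp2r1 in KO, against 12.5, 6.58, 5.47 and 6.6 times in WT. These groups did not overlap, but counting intervals did, because of the few reads of Cyp2r1. The intervals of KO replicates 1 to 3 reached into those of WT replicates 2 to 4. That of KO replicate 3, 2.74 to 9.57, also reached that of WT replicate 1, 8.04 to 20.4.

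**Figure D3:**
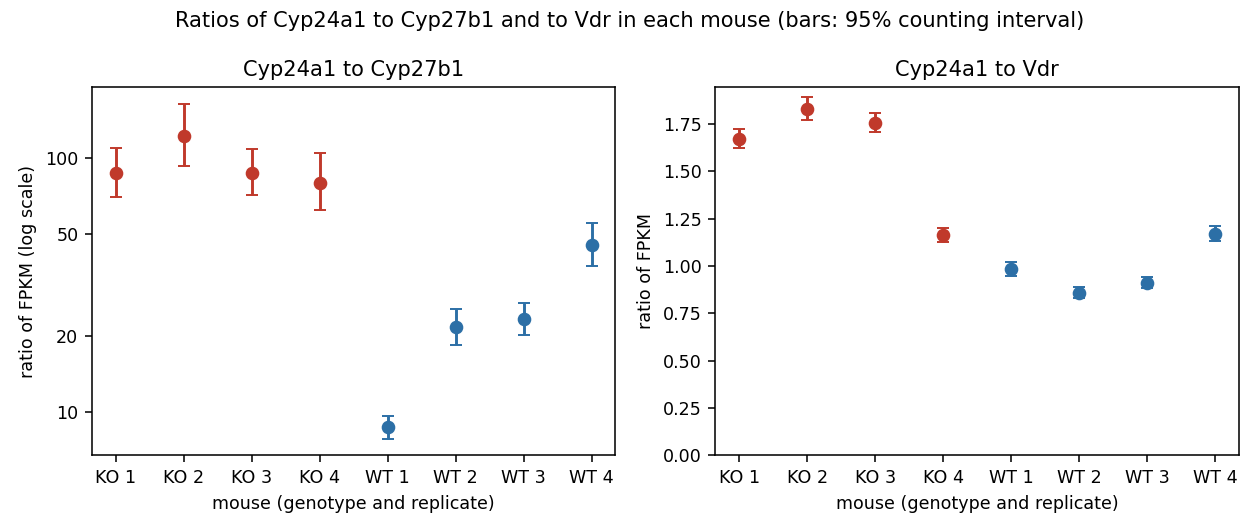
Ratio of Cyp24a1 to Cyp27b1 (left, log axis) and of Cyp24a1 to Vdr (right, linear axis from 0) in each mouse, as a ratio of FPKM with its 95% counting interval. On the left the KO mice sit at 79.7 to 121 and the WT mice at 8.75 to 45.5, and on the right KO replicate 4, at 1.16, lies within the WT range.

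Whether the genes varied together from mouse to mouse was examined within each genotype, after the mean of the genotype had been taken off, which uses no part of the KO against WT difference. The pair with the highest r was Cyp24a1 and Vdr, with Pearson r = 0.65 (exact permutation of mice within genotypes, two-sided, p = 0.0851, adjusted p = 0.51 over 6 pairs) and Spearman rho = 0.67 (exact permutation p = 0.139, adjusted p = 0.83) over 8 mice. The r was 0.55 without the 2 mice farthest from the median of Cyp24a1 (exact permutation p = 0.333), and 0.52 to 0.79 with each mouse left out. So this relation did not pass. The deviations of WT replicate 1 were -0.33 for Cyp24a1 and -0.34 for Vdr on the log2 scale, those of KO replicate 3 were 0.35 and 0.20, and those of KO replicate 4 were -0.53 and -0.09.

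Cyp24a1 and Cyp27b1 showed no relation within genotypes that this number of mice could detect, with r = -0.22 (exact permutation p = 0.613, adjusted p = 0.83) and rho = 0.00 (exact permutation p = 1, adjusted p = 1). The r was 0.02 without the 2 mice farthest from the median and, with single mice left out, it was 0.31 without WT replicate 1 and 0.07 without WT replicate 4, so its sign rested on either of these mice. For Cyp27b1 and Vdr, leaving out WT replicate 1 also turned the sign, with r = -0.27 over 8 mice (exact permutation p = 0.691, adjusted p = 0.83), rho = 0.19 (exact permutation p = 0.764, adjusted p = 0.99), and r = 0.86 without WT replicate 1 (exact permutation p = 0.0556, adjusted p = 0.33). Without the 2 mice farthest from the median of Cyp27b1 it was 0.94 (exact permutation p = 0.0208, adjusted p = 0.13 over the 6 pairs). This unadjusted p is the smallest that the permutations of the mice kept can give. The 3 pairs with Cyp2r1 had r between -0.48 and 0.37 and rho between -0.45 and 0.24, with unadjusted exact permutation p of 0.25 or more. At an unadjusted p under 0.05, 0 of the 6 pairs passed with all 8 mice.

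**Figure D4:**
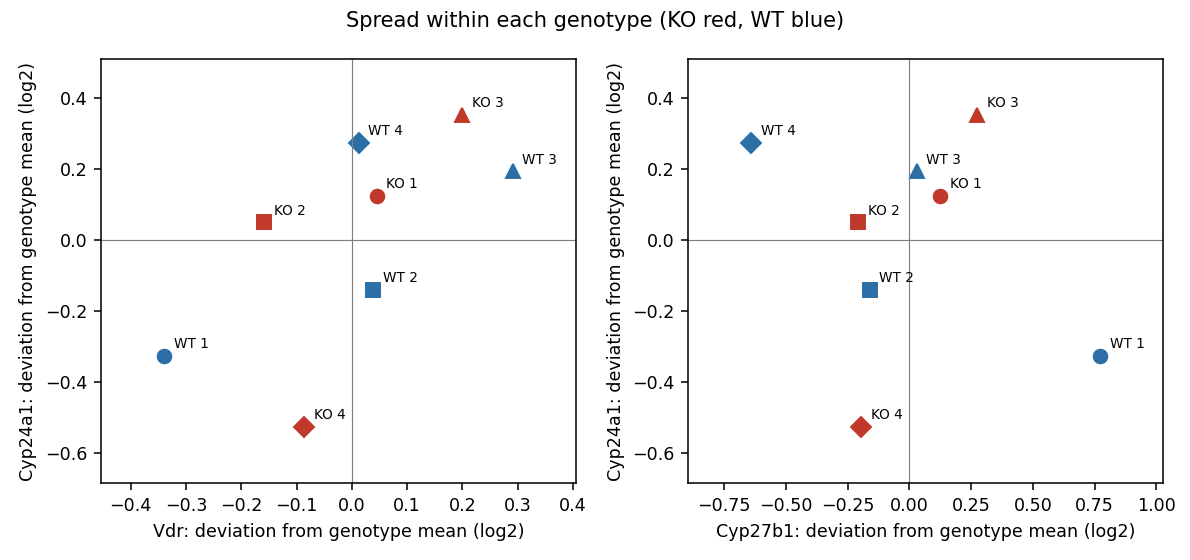
Deviation of each mouse from the mean of its genotype on the log2(FPKM + 1) scale, for Cyp24a1 against Vdr (left) and Cyp24a1 against Cyp27b1 (right), with KO in red and WT in blue. On the left r was 0.65, which did not pass the test, and on the right WT replicate 1 and WT replicate 4 stand far apart along Cyp27b1.

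Genes that supply vitamin D to the tubule cell or serve its enzymes formed a list of 13, of which 11 were tested. By limma 0 rose and 0 fell at an adjusted p under 0.05, 2 had an unadjusted p under 0.05 (5.96% of all genes tested did), and the median log2 fold change was -0.05, beside -0.01 over all genes tested. Gc, the vitamin D-binding protein that carries vitamin D metabolites in plasma, had the lowest p of the list. Only its RNA in the kidney was measured, and its protein in plasma was not. Gc was at 13.8, 10.9, 11.2 and 17.7 FPKM in KO replicates 1 to 4, against 32.9, 22.4, 27.3 and 24.4 FPKM in WT replicates 1 to 4. The KO values all lay below the WT values, with means of 13.4 ± 3.13 FPKM in KO and 26.7 ± 4.55 FPKM in WT (SD, n = 4 each). With a log2 fold change of -0.94 ± 0.15 (SE) and a limma adjusted p of 0.11 it missed the threshold. It passed without KO replicate 4 (adjusted p = 0.032) and with array weights (adjusted p = 0.017), while over all 15 alternatives the limma adjusted p ran from 0.017 to 0.46 and the log2 fold change from -1.06 to -0.80.

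The receptors that take up filtered vitamin D-binding protein did not pass. Lrp2 (megalin) was at 175 ± 61.3 FPKM in KO and 200 ± 12.7 FPKM in WT (SD, n = 4 each), where KO replicate 2 had 83.5 FPKM and the other KO mice 198 to 216 FPKM. Cubn (cubilin) was at 40.8 ± 11.8 FPKM in KO and 50.2 ± 0.964 FPKM in WT, with 23.2 FPKM in KO replicate 2. All KO values of Cubn lay below the WT values, but after the libraries were scaled to each other the groups overlapped. Amn, the partner that anchors cubilin in the membrane, was at 227 ± 15.9 FPKM in KO and 195 ± 9.6 FPKM in WT, and all KO values lay above the WT values (log2 fold change 0.24 ± 0.10, limma adjusted p = 0.82). Cyp27a1, another enzyme that can carry out the earlier hydroxylation, was at 28.3 ± 3.84 FPKM in KO and 30.3 ± 2.13 FPKM in WT. Fdx1 and Fdxr, which pass electrons to the mitochondrial enzymes Cyp27b1 and Cyp24a1, were at 107 ± 24.8 FPKM and 10 ± 0.66 FPKM in KO, against 94.2 ± 10.2 FPKM and 9.78 ± 0.27 FPKM in WT. For Fdx1, KO replicate 2 was at 144 FPKM and the other KO mice at 94.2 to 95.1 FPKM.

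Of the partners and coregulators of Vdr, 14 of 15 were tested, 0 passed in either direction by limma, 0 had an unadjusted p under 0.05, and the median log2 fold change was -0.09. Rxra, which pairs with Vdr on DNA, was at 57.8 ± 14.1 FPKM in KO and 61.3 ± 1.36 FPKM in WT (SD, n = 4 each). In KO replicate 2 Rxra was at 36.6 FPKM, while the other KO mice were at 63.9 to 65.3 FPKM. The WT mice were at 59.8 to 63.1 FPKM. Rxrb, a relative of Rxra, was at 44.2 ± 8.01 FPKM in KO and 37.8 ± 3.51 FPKM in WT (limma adjusted p = 0.85), and the coactivator Ncoa2 at 11.2 ± 3.56 FPKM in KO and 12.8 ± 0.473 FPKM in WT (limma adjusted p = 0.87). KO replicate 2 had 5.81 FPKM of Ncoa2 and the other KO mice 12.8 to 13.2 FPKM. Without KO replicate 2 the log2 fold change of Ncoa2 was 0.00, and the median of the list was 0.05.

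Genes known to respond to calcitriol, most of them in calcium handling, did not pass the test in either direction. Of 14 listed, 13 were tested, 0 rose and 0 fell by limma, 1 had an unadjusted p under 0.05, and the median log2 fold change was 0.03. Calb1 and S100g, the calcium-binding calbindins of the distal tubule, were at 45.8 ± 8.48 FPKM and 252 ± 88.7 FPKM in KO, against 43.6 ± 2.66 FPKM and 236 ± 19.8 FPKM in WT (SD, n = 4 each). For S100g, KO replicate 2 was at 373 FPKM and the other KO mice at 176 to 261 FPKM. Trpv5, the apical calcium channel, was at 3.47 ± 0.525 FPKM in KO and 3.41 ± 0.21 FPKM in WT. Cldn12, a tight junction protein, had the lowest p of this list, at 22 ± 3.45 FPKM in KO and 27.4 ± 1.22 FPKM in WT (log2 fold change -0.30 ± 0.10, limma adjusted p = 0.69), and all KO values lay below the WT values. The cell cycle inhibitor Cdkn1a was at 6.3 ± 1.85 FPKM in KO and 4.86 ± 0.484 FPKM in WT (limma adjusted p = 0.85).

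In the signalling of PTH and FGF23, the hormones that set Cyp27b1 and Cyp24a1, 19 of 22 genes were tested, 0 passed in either direction by limma, 1 had an unadjusted p under 0.05, and the median log2 fold change was -0.05. Pth1r, the PTH receptor, was at 396 ± 14 FPKM in KO and 401 ± 16 FPKM in WT, and Kl (klotho) at 175 ± 38.7 FPKM in KO and 191 ± 9.96 FPKM in WT (SD, n = 4 each). The level of Kl was 119 FPKM in KO replicate 2 and 179.4 to 206.5 FPKM in the other KO mice. Fgfr1, the main receptor that klotho joins, was at 14.1 ± 2.55 FPKM in KO and 14.1 ± 1.4 FPKM in WT. Cebpb, a transcription factor, had the lowest p, at 27.4 ± 19.2 FPKM in KO and 11.2 ± 1.44 FPKM in WT (log2 fold change 1.04 ± 0.36, limma adjusted p = 0.71). KO replicate 2 had 55.7 FPKM of it, the other KO mice 14.7 to 22.7 FPKM and the WT mice 9.51 to 13.0 FPKM. With that KO mouse left out, the log2 fold change of Cebpb was 0.61. Casr, the calcium-sensing receptor, was at 9.15 ± 4.05 FPKM in KO and 12.6 ± 1.38 FPKM in WT (limma adjusted p = 0.86), with 3.12 FPKM in KO replicate 2. Without KO replicate 2 its log2 fold change was -0.16, against -0.53 with all mice.

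Phosphate transport, which the same hormones control, had 7 of 7 genes tested and 0 past the threshold in either direction by limma, with 0 at an unadjusted p under 0.05 and a median log2 fold change of -0.08. Slc34a1, the main phosphate carrier of the proximal tubule, was at 3395 ± 327 FPKM in KO and 3505 ± 289 FPKM in WT (SD, n = 4 each), and Slc34a3 at 37 ± 2.67 FPKM in KO and 39.9 ± 4.54 FPKM in WT. The level of Slc34a1 was 2906 FPKM in KO replicate 2 and 3527 to 3584 FPKM in the other KO mice. Slc20a1, another phosphate carrier, was at 8.08 ± 0.513 FPKM in KO and 7.22 ± 0.587 FPKM in WT, and the scaffold gene Pdzk1 at 190 ± 20.5 FPKM in KO and 218 ± 15.9 FPKM in WT (limma adjusted p = 0.86 for each).

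**Figure D5:**
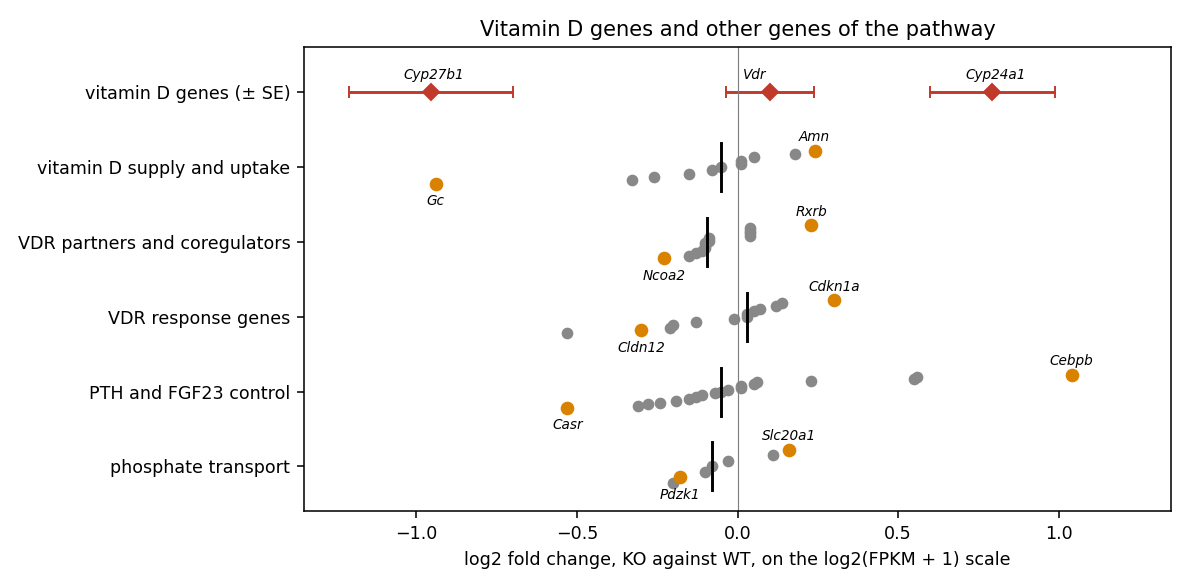
Log2 fold change, KO against WT, on the log2(FPKM + 1) scale for Cyp27b1, Vdr and Cyp24a1 with SE (top row) and for each tested gene of the 5 lists (points, 1 row per list, with the list median as a black line). Named genes are in orange, Gc stands at -0.94, and the list medians lie between -0.09 and 0.03.

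The genes most like each member in level over the 8 mice were sought among 11230 tested genes with a usual symbol, by Pearson r on the log2(FPKM + 1) scale. These r include the difference between genotypes and rest on libraries shared by all genes, so they are given without a p. Closest to Cyp24a1 were Fkbp4, a cochaperone of steroid receptors (r = 0.955), the peptidase gene Dpp7 (r = 0.94), the kinesin light chain gene Klc4 (r = 0.91) and the organic anion transporter gene Slc22a7 (r = 0.91). Fkbp4 was at 140 ± 8.69 FPKM in KO and 122 ± 2.05 FPKM in WT, and Slc22a7 at 17.6 ± 7.83 FPKM in KO and 5.03 ± 2.41 FPKM in WT (SD, n = 4 each). Neither gene passed (limma adjusted p = 0.75 for Fkbp4 and 0.28 for Slc22a7). Closest to Cyp27b1 were Anks4b, a brush border scaffold gene (r = 0.97), Mios (r = 0.96), Sdad1 (r = 0.95) and the lipid kinase gene Pik3c2g (r = 0.945). Anks4b was at 18.7 ± 1.28 FPKM in KO and 20.6 ± 1.56 FPKM in WT, a far smaller relative spread than that of Cyp27b1. Closest to Vdr were Ralgds (r = 0.97), Prpf40b (r = 0.94), Slc22a26 (r = 0.93) and Ino80e (r = 0.92).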

How the data were processed

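Kidney FPKM of the 8 mice were taken from 1 table the authors deposited, which states no unit. The unit was read from the low values, which are whole multiples of a step that shrinks as genes get longer. For what the authors ran, the submitters' processing notes name build mm10 and the tools CASAVA, DESeq2, HTSeq 0.6.1 and STAR 2.5. Their roles, the gene annotation and any use of strand were not given in the sources used here. Library totals, gene lengths and whole reads were recovered from the FPKM steps for all 22945 genes above 0. Reads served for counting intervals and scaling, which cover counting error only.

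FPKM divided by trimmed-mean-of-M-values factors (0.936 to 1.052 per library) were tested with limma 3.58.1 in R 4.3.3 on log2(FPKM + 1), for genes with a mean of at least 1 FPKM, with trend and robust moderation and Benjamini-Hochberg adjustment at 0.05. The procedure was tested on simulated data in which every gene had the same dispersion and no library stood apart. That simulation therefore does not cover a library such as KO replicate 2. No label pairs KO with WT mice, and replicate numbers follow accession order. Within-genotype correlations used all 576 permutations.

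The members and lists were chosen with earlier results of these data known. The rule for other named genes took, in each list, the genes past the threshold, or else the 2 with the lowest p, and the 4 genes most like each of Cyp24a1, Cyp27b1 and Vdr. Further list genes named in the report were chosen for their roles after values were seen. Alternatives covered scaling, pseudocount, filter, limma-voom on recovered reads, array weights and leaving out each mouse. Leaving out 2 mice together was added after seeing the data.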

Additional observations from a re-analysis of the deposited data

Results flagged for a closer look

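In each group of 4 mice, a value was looked at again when its gap to the nearest other mouse took up more of the group's range than Dixon's 95% critical value. This held for 8 of 92 groups of values, and chance flags about 1 in 20. The 92 did not take in list genes named for their roles, such as Rxra, Fdx1, Lrp2, Cubn and Slc34a1. There too KO replicate 2 stood apart, with Rxra at 36.6 FPKM (other KO mice 63.9 to 65.3). Its Fdx1 was at 144 FPKM (other KO mice 94.2 to 95.1). None of the 8 was a value of Cyp24a1, Cyp27b1, Cyp2r1, Vdr or of the ratio of Cyp24a1 to Cyp27b1 or to Vdr.

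KO replicate 2 gave 7 of the 8. It was lowest of the KO mice for Ncoa2 at 5.81 FPKM (other KO mice 12.8 to 13.2), Cldn12 at 16.8 FPKM (23.6 to 23.8), Casr at 3.12 FPKM (10.7 to 11.8), Pdzk1 at 160 FPKM (197 to 204) and Sdad1, one of the genes most like Cyp27b1, at 2.76 FPKM (3.38 to 3.48). The mean of the Vdr partners and coregulators was -0.43 in that mouse on the log2 scale relative to WT (0.07 to 0.08 in the other KO mice), and that of the endothelial markers was -0.70 (-0.01 to 0.07). WT replicate 2 was highest of the WT mice for Rxrb at 43 FPKM (35.5 to 36.7).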

How the results depend on the processing

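The direction of Cyp24a1, of Cyp27b1 and of their ratio was the same under every alternative run. For Cyp27b1 and the ratio, leaving out mice could not turn it, since the groups did not overlap. The genes were also chosen on this contrast, so nothing is read from the constant direction. The log2 fold change of Cyp24a1 was 0.67 to 0.85 over the settings that left out no mouse or both KO replicate 2 and WT replicate 1, and 0.68 to 0.97 with each mouse left out. For Cyp27b1 these ranges were -1.33 to -0.63 and -1.17 to -0.70, for Vdr 0.04 to 0.16 and -0.01 to 0.20, for Cyp2r1 0.03 to 0.11 and -0.03 to 0.10, and for the log2 ratio of Cyp24a1 to Cyp27b1 1.57 to 2.13 and 1.70 to 2.50. The count of genes called was 5 (2 higher and 3 lower in KO), 3 to 21 with each mouse left out, 9 without KO replicate 2 and WT replicate 1 together, and 59 (30 higher and 29 lower) with array weights. It was 21 without KO replicate 2, 21 without KO replicate 3, 9 without KO replicate 4, and 3 without WT replicate 1 or without WT replicate 3. The cause was not tested. Of the genes in the 5 lists 0 were called, and 0 to 1 with each mouse left out (Gc, without KO replicate 4, which also passed with array weights). The log2 fold change of Ncoa2 was -0.31 to 0.00 with each mouse left out, with 0.00 without KO replicate 2.

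The within-genotype correlation of Cyp24a1 and Cyp27b1 was -0.57 to 0.31 with each mouse left out (above 0 without WT replicate 1 or WT replicate 4), 0.02 without the 2 mice farthest from the median, and 0.37 without KO replicate 2 and WT replicate 1 together. In the same order, it was -0.47 to 0.86, 0.94 and 0.84 for Cyp27b1 and Vdr, and -0.64 to 0.27, 0.54 and 0.18 for Cyp2r1 and Vdr, which gave 0.01 with no scaling factor. For Cyp27b1 and Cyp2r1 it was -0.23 to 0.62 with each mouse left out and -0.28 without the 2 mice farthest. No paired analysis was possible because the labels give no number shared by KO and WT mice. Cyp27b1 and Cyp2r1 are the genes that depth limits, at 52 to 393 and 11 to 23 reads per library.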

Other observations

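Trpv6, the apical calcium channel related to Trpv5, was chosen after its values were seen. It was at 0.459, 0.539, 0.742 and 0.428 FPKM in KO replicates 1 to 4, against 0.253, 0.406, 0.302 and 0.336 FPKM in WT replicates 1 to 4. The KO values all lay above the WT values, but the gene was below the filter on low values and was not tested. Dab2, an adaptor of megalin-mediated uptake, was also chosen after its values were seen. It was at 115, 109, 115 and 119 FPKM in KO replicates 1 to 4, against 120, 131, 128 and 135 FPKM in WT replicates 1 to 4 (limma adjusted p = 0.86). All KO values of Dab2 lay below the WT values, but after the libraries were scaled to each other the groups overlapped.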
